A study of Mus musculus with 2 samples.

Results

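The MHC class I presentation genes load peptides from the cytosol onto cell-surface class I molecules, and 10 of them were examined here: B2m, H2-K1, H2-D1, H2-T23, Tap1, Tap2, Tapbp, Psmb8, Psmb9 and Nlrc5. They were chosen by name, and all probe sets whose platform annotation gives one of these symbols or an older alias were taken. This gave 31 of the 45037 probe sets, 26 annotated to 1 gene and 5 annotated to several genes. Of the 10 genes, 9 had a probe set of their own, out of 18193 genes represented in this way, and H2-T23 had shared probe sets alone.

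Expression had been measured on 2 one-colour arrays of thymocytes of C57BL/6J mice, 1 titled TKO and 1 titled DKO. The cells were those without lineage markers, kept after depletion with magnetic beads, and the labels also state culture in standard medium. By the series' design text TKO is LckCre(+) Cdkn2a-/- Ring1A-/- Ring1B fl/fl, and DKO is LckCre(-) with the same alleles, so that both lack Cdkn2a and Ring1A and only TKO cells carry Lck-Cre, a recombinase under a T-lineage promoter. The samples' own genotype field instead names TKO as a Ring1A, Ring1B and Cdkn2a knockout and DKO as a Ring1A and Ring1B knockout. Neither age nor a number of animals per array was given. With 1 array per title there was no spread between animals and no test, and every difference below describes these 2 arrays. The count of higher and lower genes took those that differed by 2-fold or more, and signals below the median of an array (71.8 on the TKO-labelled and 68.8 on the DKO-labelled array) were raised to that floor.

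Class I molecules pair a polymorphic heavy chain with beta-2 microglobulin. Peptides are cut by the proteasome, in which the interferon-inducible subunits Psmb8 and Psmb9 can replace constitutive ones, and are carried into the endoplasmic reticulum by the Tap1 and Tap2 transporter. There tapasin, the product of Tapbp, holds empty class I molecules at the transporter until a peptide binds. Transcription of these genes is raised by interferons and by Nlrc5, the class I counterpart of the class II transactivator Ciita, and class I levels on thymocytes are known to change as the cells mature.

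The windows upstream of the start sites are shown because the heavy chain genes and B2m share a promoter layout, while Tap1 and Psmb9 share a promoter. Each is the 250 bases before the RefSeq start on GRCm38.p6 (for H2-K1 the first of 2 listed), 5′ to 3′ on the gene's strand. The windows lie at chr17:34000348-34000597 (minus strand) for H2-K1, chr17:35262844-35263093 (plus) for H2-D1, chr2:122147437-122147686 (plus) for B2m and chr17:34187306-34187555 (plus) for Tap1. Capitals mark matches, on either strand, to GGGANTNCC (a kappa-B type site, reverse GGNANTCCC), GAAANNGAA (a pair of interferon response half-sites, reverse TTCNNTTTC), TGACG (the core of the X2 box, reverse CGTCA) and CCAAT (the Y box, reverse ATTGG).
H2-K1: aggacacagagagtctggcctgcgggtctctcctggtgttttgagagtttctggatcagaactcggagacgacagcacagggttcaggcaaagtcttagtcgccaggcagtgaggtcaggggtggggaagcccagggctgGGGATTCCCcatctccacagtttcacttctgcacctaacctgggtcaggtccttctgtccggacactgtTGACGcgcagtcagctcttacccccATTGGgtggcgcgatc
H2-D1: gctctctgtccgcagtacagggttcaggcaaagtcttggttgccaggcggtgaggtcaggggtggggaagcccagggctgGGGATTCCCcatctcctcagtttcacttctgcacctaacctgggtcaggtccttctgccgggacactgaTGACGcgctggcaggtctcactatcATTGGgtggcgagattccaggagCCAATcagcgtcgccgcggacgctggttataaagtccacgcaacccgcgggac
B2m: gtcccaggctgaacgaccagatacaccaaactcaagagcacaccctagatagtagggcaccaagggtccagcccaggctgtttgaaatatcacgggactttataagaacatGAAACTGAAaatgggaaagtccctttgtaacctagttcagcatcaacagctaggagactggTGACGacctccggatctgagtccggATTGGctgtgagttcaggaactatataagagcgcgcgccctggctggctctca
Tap1: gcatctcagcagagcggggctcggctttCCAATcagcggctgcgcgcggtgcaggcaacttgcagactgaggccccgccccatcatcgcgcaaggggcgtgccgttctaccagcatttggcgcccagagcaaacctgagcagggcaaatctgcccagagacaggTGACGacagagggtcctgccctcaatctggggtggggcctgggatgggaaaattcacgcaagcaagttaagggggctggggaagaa

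In H2-K1, H2-D1 and B2m the TGACG core stood on the gene's strand with a reversed CCAAT box after 20 further bases. The pattern with the spacing of these 3 windows was then searched for on either strand. It occurred in 25 of 27025 windows (0.0925%), 1 per gene, and 4 of the 25 belong to the class I genes listed here, these 3 and H2-M3. As the spacing was that of these 3 windows, they were bound to be among the 25, and their count there is no separate result. In H2-K1 and H2-D1 a kappa-B match began 69 bases before the TGACG core, and shifted by 60 bases the windows were identical at 166 of 190 positions (87.4%). The kappa-B letters in these 2 windows match on both strands at the same bases. Over all windows 3.34% held a kappa-B match, 7.16% the interferon half-site pair, 17.9% TGACG and 34.5% CCAAT. Of the 8 members with a window in the table, 2, 2, 5 and 7 held these motifs in that order, and the interferon half-site pairs were those of B2m and H2-T23. The starts of Tap1 and Psmb9 lie head to head with 225 bases between them, all of which are part of the Tap1 window above. The TGACG and CCAAT matches of Psmb9 are those of Tap1 read on the other strand, so the counts of 5 and 7 include the same bases for both genes. A match is a run of letters and shows no binding. Only the exact letters given above were searched for. The lack of an interferon half-site match in H2-K1 and H2-D1 therefore does not show that these windows lack an interferon response element. Tap2 and Nlrc5 were the 2 members without an entry.

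No class I presentation gene differed by 2-fold between the arrays. Of the 9 genes with a probe set of their own, 0 passed 2-fold upward on the TKO-labelled array and 0 downward, where over all 11280 genes above the floor on at least 1 array the shares were 3.58% higher and 0.532% lower. In the brightest quartile of genes above the floor on both arrays, which held 8 of the 9, these shares were 1.24% and 0.155%. The largest member ratio was that of Nlrc5, 1.43-fold higher. The median log2 ratio (TKO-labelled minus DKO-labelled) of the 9 was 0.20, with 6 above 0 and 3 below, against a median of -0.03 over all genes, 46.5% of which were above 0. The brightest quartile had a median of -0.09, and its 5th and 95th percentiles were -0.37 and 0.42. As the error between animals is unknown, the only gauge at hand was the disagreement between the brightest pair of probe sets of a gene, a robust SD of 0.21 per probe set over 4794 genes, and it holds no error of animal, RNA or hybridisation.

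**Figure D1:**
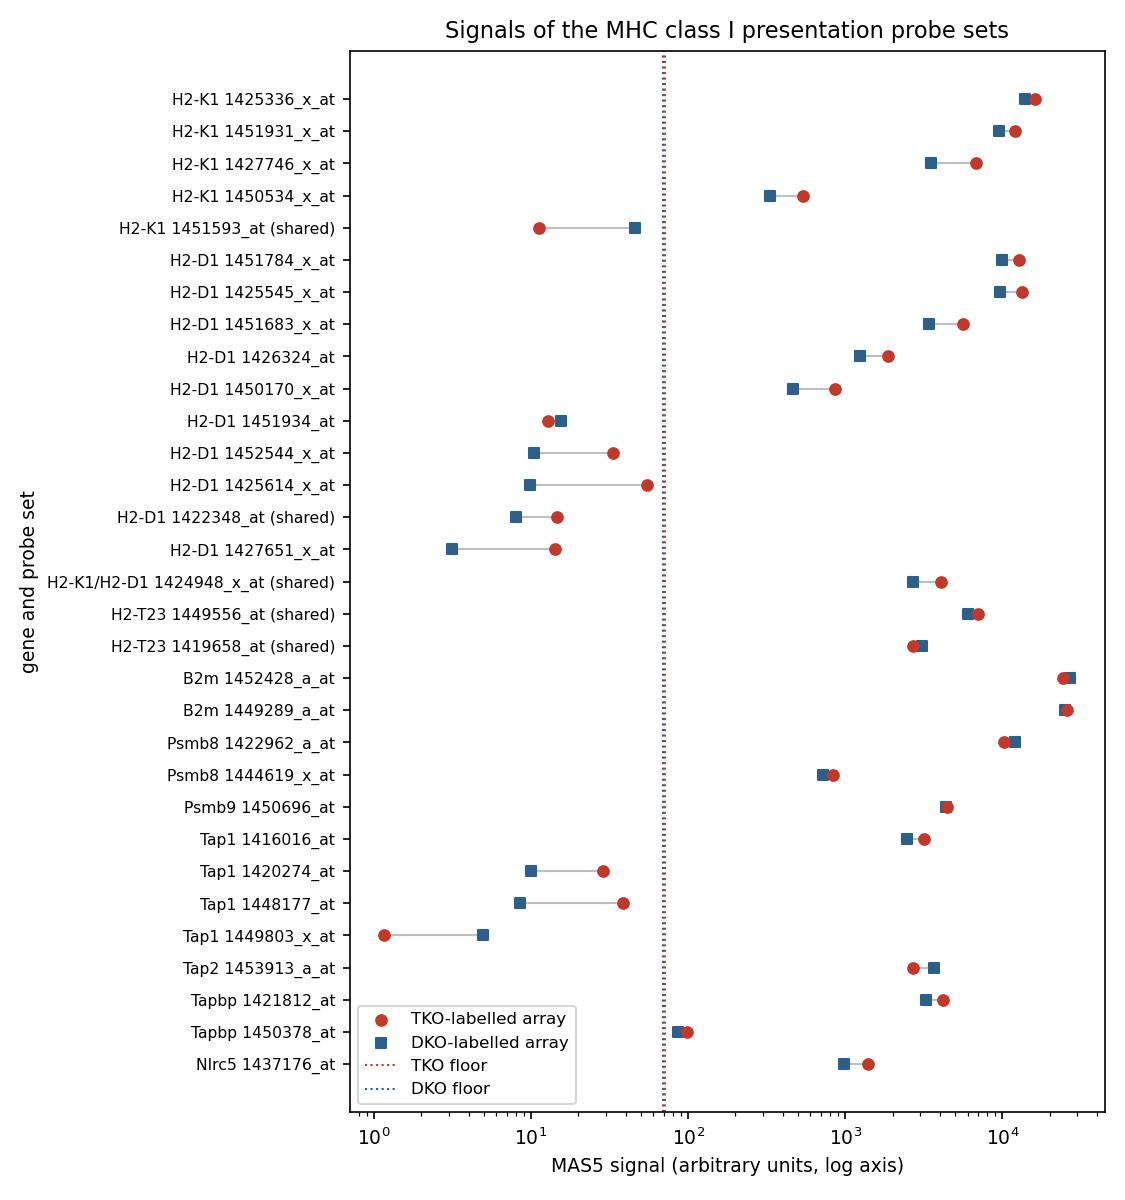
MAS5 signals (arbitrary units, log axis) of all 31 class I presentation probe sets on the TKO-labelled (circles) and DKO-labelled (squares) arrays, with the floor of each array as a dotted line. The 22 probe sets to the right of the floors are measured and the 9 to the left lie below the floor on both arrays.

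Counted by probe set, 22 of the 31 were above the floor on both arrays and 9 lay below it on both. Of the 22, 18 had a ratio above 0 and 4 below, with a median log2 ratio of 0.34, against a median of -0.02 and 46.8% above 0 over 23894 probe sets. None of the 22 was at least 2-fold higher or lower, where 2.91% of all probe sets were higher and 0.578% lower. The 18 are not 18 separate observations, since probe sets of a gene were read from the same hybridisations and 10 of the 22 belong to H2-K1 and H2-D1.

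The classical heavy chain genes H2-K1 and H2-D1, whose products present peptides to CD8 T cells, read higher on the TKO-labelled than on the DKO-labelled array on each measured probe set, by less than 2-fold. H2-K1 read 16070, 12012, 6818 and 536 on the TKO-labelled array, against 14011, 9523, 3528 and 333 on the DKO-labelled array, over its probe sets 1425336_x_at, 1451931_x_at, 1427746_x_at and 1450534_x_at. All 4 were higher on the TKO-labelled array, with log2 ratios of 0.20, 0.34, 0.95 and 0.69. The first of these, the brightest, stands for the gene, and over all 4 the mean log2 ratio was 0.54, so the size of the H2-K1 difference rests on the probe set. Measured probe sets of this gene are all of the _x_at type, which can hybridise with related sequences.

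H2-D1 was higher on each of its 5 measured probe sets. Its signals were 13426, 12770, 5633, 1865 and 856 on the TKO-labelled array, against 9692, 9916, 3386, 1245 and 466 on the DKO-labelled array, in the order 1425545_x_at, 1451784_x_at, 1451683_x_at, 1426324_at and 1450170_x_at. The log2 ratios were 0.47, 0.36, 0.73, 0.58 and 0.88, and the 1 probe set not of the _x_at type, 1426324_at, was at 0.58. The other 4 single-gene H2-D1 probe sets lay below the floor on both arrays and have no ratio. A probe set annotated to both H2-K1 and H2-D1 read 4080 on the TKO-labelled and 2682 on the DKO-labelled array, a log2 ratio of 0.61.

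Over the 9 measured probe sets of H2-K1 and H2-D1 the log2 ratio ran from 0.20 to 0.95, with a median of 0.58, and the brighter probe sets had the smaller ratios (Spearman rho = -0.68 between mean log2 signal and ratio, n = 9 probe sets). These 9 share the 2 hybridisations and targets of similar sequence, so the value is a description. No 2-fold difference was reached on any of them. The nearest to it was 1427746_x_at, at 1.93-fold higher. Of the genes measured on both arrays, 89.9% had a lower ratio than H2-D1 and 76.6% a lower ratio than H2-K1, each at its brightest probe set.

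**Figure D2:**
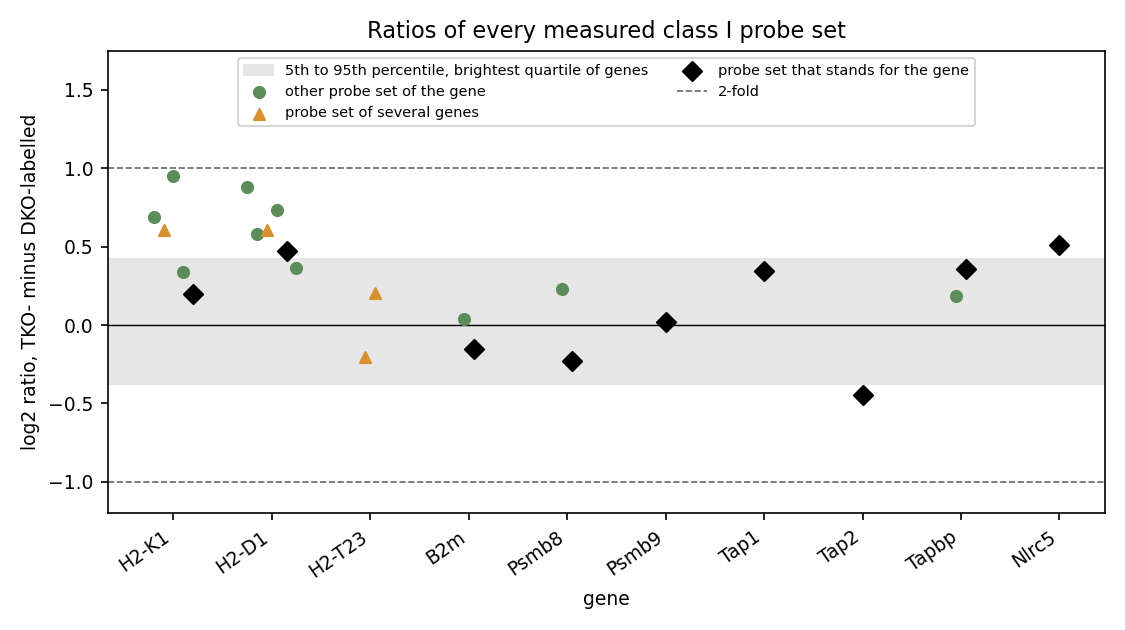
Log2 ratio (TKO-labelled minus DKO-labelled array) of each of the 22 measured probe sets, by gene. Diamonds are the probe sets that stand for the genes, circles their other probe sets and triangles probe sets of several genes (the one of H2-K1 and H2-D1 is drawn under both); the shaded band runs from -0.37 to 0.42. All points of H2-K1 and H2-D1 lie above 0 and below the dashed 2-fold line, and Tap2 is the lowest point, at -0.44.

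H2-T23, which encodes the Qa-1 molecule that presents a signal peptide to natural killer cell receptors, could be read only on 2 probe sets shared with the pseudogene H2-T-ps. They gave 6981 and 2685 on the TKO-labelled array, against 6058 and 3089 on the DKO-labelled array. The first was higher and the second lower on the TKO-labelled array, at log2 ratios of 0.20 and -0.20. No direction can be given for this gene.

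B2m encodes beta-2 microglobulin, the invariant light chain that every classical class I heavy chain needs to reach the surface. Its 2 probe sets read 24382 and 25742 on the TKO-labelled array, against 27103 and 25105 on the DKO-labelled array. The log2 ratios of -0.15 and 0.04 differ in sign, and both are smaller in size than the 0.21 between probe sets. The ratio of the brightest H2-K1 probe set, 0.20, is also within that size of 0, which does not bound the gap between the genes. As means over probe sets B2m was at -0.06 and H2-K1 at 0.54, and whether the genes differ was not tested.

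The immunoproteasome subunit genes were near 0. Psmb9, the inducible beta subunit once called Lmp2, read 4467 on the TKO-labelled and 4399 on the DKO-labelled array, a log2 ratio of 0.02. Psmb8, or Lmp7, read 10291 and 840 on the TKO-labelled array, against 12073 and 718 on the DKO-labelled array. Its 2 probe sets gave log2 ratios of -0.23 and 0.23, opposite in sign, so no direction can be given, and their mean was -0.0017.

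The subunits of the peptide transporter were on opposite sides of 0. Tap1 read 3150 on the TKO-labelled and 2479 on the DKO-labelled array, 1.27-fold higher (log2 ratio 0.35), on the 1 of its 4 probe sets that was above the floor. Tap2 read 2711 on the TKO-labelled and 3690 on the DKO-labelled array, 1.36-fold lower (log2 ratio -0.44), on its only probe set. Of the genes measured on both arrays, 85.1% had a lower ratio than Tap1 and 6.37% a lower ratio than Tap2. Tap1 and Psmb9, which are read outward from their shared upstream region, had log2 ratios of 0.35 and 0.02.

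Tapbp, the gene for tapasin, read 4176 and 98.6 on the TKO-labelled array, against 3263 and 86.6 on the DKO-labelled array. Both probe sets were higher on the TKO-labelled array, with log2 ratios of 0.36 and 0.19, and the second lies close to the floor. Nlrc5, which binds the X box region of class I promoters through partner proteins, read 1395 on the TKO-labelled and 979 on the DKO-labelled array, 1.43-fold higher (log2 ratio 0.51, above that of 91.0% of genes measured on both arrays). It had 1 probe set, and lies on chromosome 8, B2m on chromosome 2, and the other 8 members on chromosome 17.

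Other class I genes did not differ in 1 direction. Of 26 genes in a list of further class I and class I-like genes, 15 had a probe set of their own. Of these 11 were measured, with a median log2 ratio of 0.14, 7 above 0 and 4 below. Over all genes 46.5% were above 0. At least 2-fold higher was 1 of the 11, against 3.58% of all genes, and 0 were lower. That gene was H2-T24, below the floor on the DKO-labelled array, at 169 on the TKO-labelled and 65.6 on the DKO-labelled array, at least 2.46-fold higher. The CD1d gene Cd1d1, which presents lipids, read 2958 on the TKO-labelled and 2154 on the DKO-labelled array (log2 ratio 0.46). H2-M3, which presents formylated peptides and carries the spaced promoter pair, read 728 on the TKO-labelled and 546 on the DKO-labelled array (0.41). Below 0 were H2-T3, the thymus leukaemia antigen gene, at -0.54, and H2-Bl at -0.39, and Mr1, which presents vitamin B metabolites, was at 0.26.

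The Qa-2 region genes could mostly be read only on shared probe sets. The probe set of H2-Q6 and H2-Q8 read 6867 on the TKO-labelled and 2966 on the DKO-labelled array, 2.32-fold higher. The probe set of H2-Q4, H2-Q6 and H2-Q8 read 3445 on the TKO-labelled and 1640 on the DKO-labelled array, 2.10-fold higher. That of H2-Q7 and H2-Q9 read 11495 on the TKO-labelled and 7288 on the DKO-labelled array, 1.58-fold higher. These ratios exceed those of the brightest H2-K1 and H2-D1 probe sets. Dimmer probe sets of these 2 genes, at up to 1.93-fold for H2-K1 and 1.84-fold for H2-D1, lay above the 1.58-fold of H2-Q7 and H2-Q9. H2-Q2, with a probe set of its own, was at a log2 ratio of 0.11, and the shared probe sets of H2-T9, H2-T10 and H2-T22 were at -0.13 and -0.04. H2-Q5, named here after its value was seen, read 512 on the TKO-labelled and 231 on the DKO-labelled array, 2.22-fold higher. Over all 20 measured probe sets of the 26 listed genes, shared ones included, 3 were at least 2-fold higher, 0 lower, 11 above 0 and 9 below.

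The proteasome, trimming and loading genes mostly had ratios below 0, as did most bright genes. Over all measured genes 53.5% had a ratio below 0, and in the brightest quartile 65.6%, with the median of -0.09 given above. Of 19 measured proteasome and proteasome activator genes, 0 were 2-fold higher and 0 lower, each at its brightest probe set. Of these 17 had a ratio below 0, and the median log2 ratio was -0.15. Psmb1 was at -0.00062 on its brightest probe set, and dimmer ones were at 1.44 (2.72-fold higher) and -0.40. Psmb5 and Psmb6, the constitutive subunits that Psmb8 and Psmb9 replace, were at -0.19 and -0.24, Psmb10, the third inducible subunit, at 0.02, and the activator Psme1 at -0.12. Psmb11, the subunit of the cortical thymic epithelium, was below the floor on both arrays. Among 16 measured genes of peptide trimming and loading, 0 were 2-fold higher and 0 lower, 13 had a ratio below 0, and the median was -0.10. Both medians differ from that of the brightest quartile by less than the 0.21 between probe sets, but that is a spread per probe set and no gauge for a median over many genes. The chaperone gene Calr was at -0.25 and the tapasin-related Tapbpl at -0.07. The chaperone gene Canx was at -0.10 and the oxidoreductase gene Pdia3 at -0.01, and dimmer probe sets of these 2 genes were above 0, at 0.20 and 0.23. The trimming peptidase gene Erap1 was at 0.17, and at 0.54 on a second probe set.

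**Figure D3:**
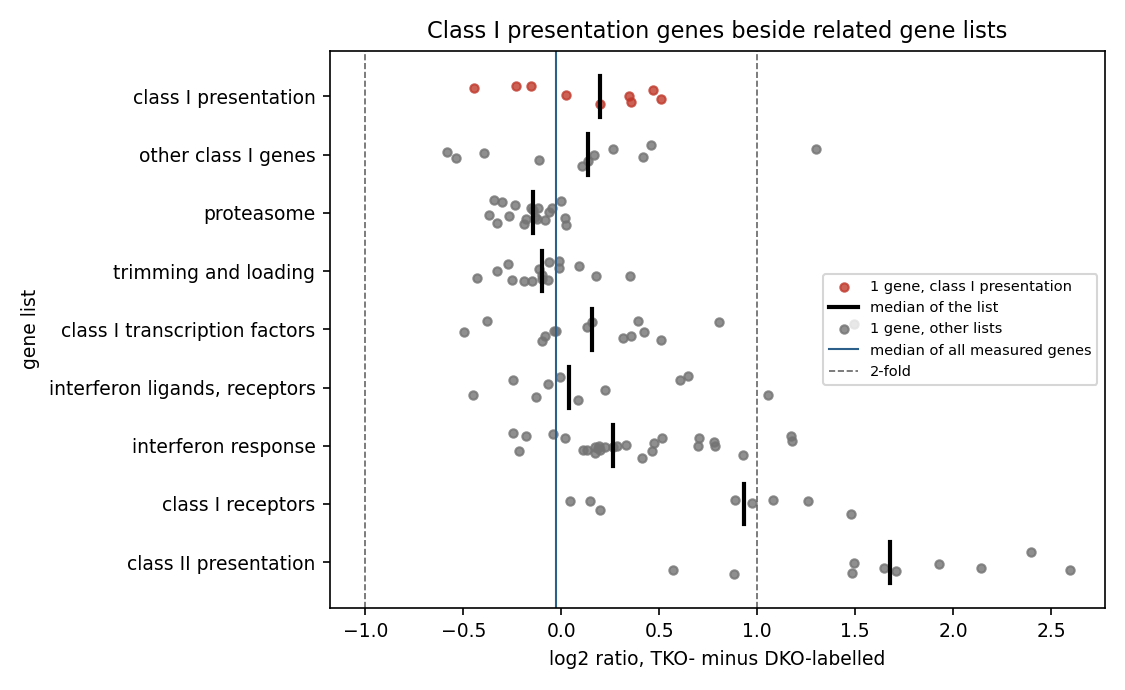
Log2 ratio (TKO-labelled minus DKO-labelled array) of each measured gene in 9 gene lists, 1 point per gene, with the median of each list as a black bar, the median of all genes as a vertical line and 2-fold as dashed lines. The class I presentation genes span -0.44 to 0.51 around a median of 0.20, and the class II list has its median at 1.68.

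The median log2 ratio of 15 measured transcription factors known at class I promoters was 0.16. Of these 1 passed 2-fold upward, against 3.58% of all genes, and 0 downward. That gene was Ciita, chiefly a class II factor, below the floor on the DKO-labelled array, at 194 on the TKO-labelled and 68.1 on the DKO-labelled array, at least 2.82-fold higher. Irf8, a factor of B and myeloid cells, was at 0.81, Irf2 at 0.42, Irf9 at 0.39 and Irf1 at 0.13. Of the X box complex that Nlrc5 and Ciita both use, Rfx5 was at 0.31. Rfxap was at -0.10 and Rfxank at -0.38, but other probe sets of these genes were at 0.10 and 0.13, so neither has a direction.

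Interferon genes and their responses were compared because class I genes are among the targets. Of 10 measured ligand, receptor and signalling genes, 1 passed 2-fold upward and 0 downward, and their median was 0.04. It was Ifng, which encodes interferon gamma and lay below the floor on the DKO-labelled array, at 143 on the TKO-labelled and 65.0 on the DKO-labelled array, at least 2.08-fold higher. Its receptor genes Ifngr1 and Ifngr2 were at -0.45 and 0.64. In the response list 23 of 27 measured genes had a ratio above 0, with 2 at least 2-fold higher, Cxcl10 (2.26-fold) and Mx2 (at least 2.26-fold), 0 lower and a median of 0.27. Over all genes 46.5% were above 0 and 3.58% at least 2-fold higher. The list median is close to the 0.20 of the class I presentation genes. Irgm1, an interferon gamma target, was at 0.27 and Ifit1 at -0.04. Gbp2, another such target, was at 0.41 and at -0.16 on its 2 probe sets and has no direction.

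Class II presentation genes differed far more than class I genes. Of 10 measured, 8 passed 2-fold upward and 0 downward on the TKO-labelled array, and the median was a log2 ratio of 1.68, and no class I presentation probe set reached the 2-fold that these 8 passed. H2-Ob read 1974 on the TKO-labelled and 327 on the DKO-labelled array, 6.03-fold higher, and the lysosomal protease gene Ctss read 5063 on the TKO-labelled and 1810 on the DKO-labelled array, 2.80-fold higher. With each gene at its brightest probe set, the lowest ratio of this list was that of H2-Oa at 0.57. The highest class I ratio was then that of Nlrc5 at 0.51. This order rests on the probe set, as H2-D1 was at 0.61 as the mean over its probe sets. Single H2-K1 and H2-D1 probe sets reached 0.95 and 0.88, and a dimmer H2-DMa probe set was at 0.42. H2-Eb2, a class II gene outside the list, was at -0.34. Whether the lists differ beyond the error between animals was not tested.

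Along chromosome 17 the class I presentation genes were not part of a block with a common ratio. The members there lie within a region of 189 annotated genes that runs from Tapbp to H2-T23 and also holds Ring1, with 2 genes between H2-K1 and Ring1. Psmb9, Tap1, Psmb8 and Tap2 follow each other with 0 genes between neighbours, and their log2 ratios in that order were 0.02, 0.35, -0.23 and -0.44. The next gene, H2-Ob, was at 2.59, and H2-DMb2, on the other side, at 1.71. Of 73 measured genes of the region that are neither class I nor class II, 1 was at least 2-fold higher (1.37%) and 1 lower, with 38 above 0, 35 below and a median of 0.01. The higher one was Ddr1, a collagen receptor gene, 2.99-fold higher on 1 probe set and at 0.37, 0.22 and 0.05 on 3 others. The lower one was Ager, at least 2.08-fold lower, and Hspa1a and Msh5 followed in size at 0.98 and 0.85.

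**Figure D4:**
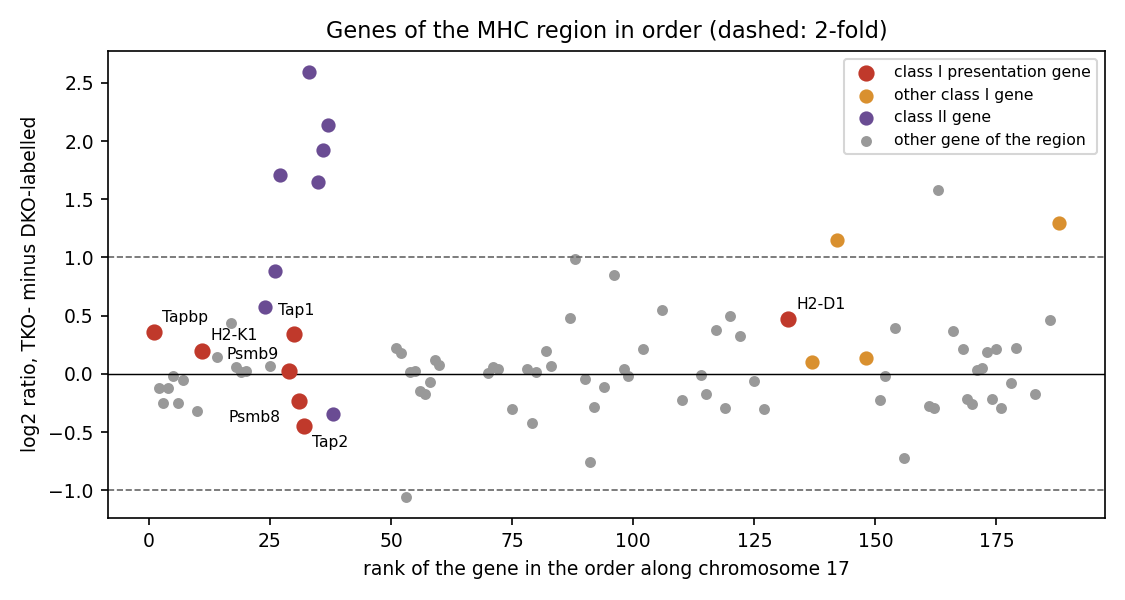
Log2 ratio (TKO-labelled minus DKO-labelled array) of each measured gene between Tapbp and H2-T23, against its rank in the order of genes along chromosome 17. The 7 class I presentation genes with a ratio lie between -0.44 and 0.47, 5 class II genes lie above the dashed 2-fold line, and the other genes of the region centre on 0.01.

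Several other features also differed between the 2 arrays. Cdkn2a read 18.5 on the TKO-labelled and 679 on the DKO-labelled array. That DKO-labelled signal is at odds with the design text, in which both lack Cdkn2a, while the genotype field names only TKO as its knockout. What the probe set reads of a targeted allele was not tested. The brightest Ring1 and Rnf2 probe sets were at log2 ratios of 0.15 and 0.08. The full genotypes could not be settled, and the arrays are called by their titles. The sex-linked genes Xist (16502 on the TKO-labelled and 124 on the DKO-labelled array) and Eif2s3y (55.3 and 1711) also differed, and sex and title cannot be told apart. All 11 measured genes of the double-negative thymocyte markers were above the floor on both arrays and had ratios below 0, 1 of them (Il2ra, log2 ratio -1.05) at least 2-fold lower, with a summed signal of 75349 on the TKO-labelled and 109831 on the DKO-labelled array, and Cd4 was below both floors. All 9 measured B cell markers passed 2-fold upward on the TKO-labelled array, with summed signals of 27483 and 7070 on the TKO-labelled and DKO-labelled arrays. The 8 macrophage markers were all above 0 (2 at least 2-fold higher) and summed to 4356 and 1965 in the same order of arrays. Of the mature T cell markers 5 of 7 were above 0, among them Klf2 at a log2 ratio of 0.84. Cd5 and Cd6 were at -0.07 and -0.05. The list summed to 12274 on the TKO-labelled and 8737 on the DKO-labelled array. Il7r alone gave 7665 and 5159 of these sums. All 6 neutrophil markers were below 0, 2 of them at least 2-fold lower. Of 4 measured dendritic cell markers 3 were above 0 and 1 of these passed 2-fold. Of 7 natural killer and innate lymphoid markers 6 were above 0, and 1 of these passed 2-fold. The other, Gzma, was the brightest of the list and was at a log2 ratio of -0.28. With it the list summed to 21447 on the TKO-labelled and 23678 on the DKO-labelled array. Of 4 measured stromal markers 3 were above 0, the 1 measured erythroid marker, Epor, was at -0.16, and none of these passed 2-fold. The stromal genes Foxn1, Col1a1 and Pdgfra were below the floor on both arrays, and no marker was at exactly 0. Over all genes 46.5% were above 0, 3.58% at least 2-fold higher and 0.532% at least 2-fold lower. In the brightest quartile 65.6% were below 0. Counts in the short marker lists rest on few genes. The part of cell makeup in the class I values was not tested, and in bulk RNA fewer cells of a type and less RNA per cell cannot be told apart.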

How the data were processed

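Total RNA (6 ug per array) of 2 samples was hybridised, per the labels' protocols. Each deposited value is the linear intensity of 1 probe set as the authors processed it, with MAS5 named per the submitters' processing notes and no version or settings given. Array-wide scaling is part of MAS5, and the trimmed mean (2% off either end) came to 497 for TKO and DKO alike. Detection calls and scan batches were not used here, and the number of arrays limits the precision.

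Probe sets were named by the platform annotation, and of the 34945 annotated to 1 gene 99.4% had an Entrez ID held in RefSeq (GRCm38.p6), from which symbols, gene order and promoter sequences came. A gene was represented by its brightest single-gene probe set, by mean log2 signal. Signals below the median of their array were raised to it, and genes below it on both arrays have no ratio. A ratio against a floored array is a bound, written as at least. The size rule of 2-fold stands in for a test. The steps were tested on simulated data made from these signals. The members, the 8 pathway lists and the 9 marker lists were chosen with earlier results of these data known. Named genes were all members, any gene of these lists, the targeted genes and up to 4 further genes of the chromosome 17 region with the largest absolute ratio. The sex-linked genes and H2-Q5 were named outside that rule, after their values were seen. Listed genes without a single-gene probe set were left out, except where shared probe sets are named. Scaling, floor, probe set choice and sharing were varied in 8 alternatives. Python 3.11.15, numpy 2.4.6, pandas 2.3.3, statsmodels 0.14.6 and matplotlib 3.10.9 were used.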

Additional observations from a re-analysis of the deposited data

How the results depend on the processing

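The counts of class I presentation genes at least 2-fold higher and lower stayed at 0 under all 8 alternatives, and their median log2 ratio moved by less than the 0.21 between probe sets. H2-D1 ranged from 0.47 to 0.61, Tap1 from 0.35 to 0.40, Tapbp from 0.27 to 0.42, Nlrc5 from 0.48 to 0.55 and Tap2 from -0.44 to -0.39, while B2m, at -0.15, was at 0.05 after quantile normalization and 0.03 after lowess. As the mean over probe sets H2-K1 was at 0.54 and Psmb8 at -0.0017. Raising the floor to the 75th percentile gave 2-fold higher counts of 0 other class I genes, 0 transcription factors, 0 interferon ligands and receptors, 0 interferon-response genes, 1 class I receptor gene and 0 other genes of the chromosome 17 region, because dim genes are raised to the floor. With the 25th percentile they were 2 transcription factors and 5 other genes of the region. Over all genes the counts were 962 higher and 434 lower with the 25th and 147 and 14 with the 75th percentile, against 404 and 60, and the higher share of calls was 68.9% and 91.3%, against 87.1%. Quantile normalization left 0 interferon ligand and receptor genes. Without _x_at, _s_at and _a_at probe sets, 5 class II genes, 1 class I receptor gene and 0 other genes of the region were higher, and the mean over probe sets also left 0 of the region. With the median ratio set to 0 there were 2 such genes of the region. Counting shared probe sets for each of their genes gave 4 other class I genes. Of 244 values under alternatives, 223 stayed within 1.5 times a count or within 0.21 of a log2 ratio, the sign changes of B2m among them, and 21 moved further, for which the cause was not tested unless stated. Signals under the floor, as for 9 of 31 probe sets, carry no ratio. Leaving out _x_at, _s_at and _a_at probe sets gave no value for B2m, H2-K1, Psmb8 and Tap2, which have no other measured probe set. No paired analysis was possible because each title has 1 array.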

Other observations

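Some genes in a list of class I receptors and their relatives, not all of which need bind class I molecules, passed 2-fold on the TKO-labelled array. Of 8 measured, 3 passed 2-fold upward, 0 downward, and 5 did not, and the median log2 ratio was 0.93, where 3.58% of all genes were at least 2-fold higher. Of the 7 measured natural killer and innate lymphoid markers, which share Klrd1 with this list, 6 were above 0. The brightest, Gzma, was at -0.28, and the median of the 7 was 0.58. The part of such cells in these values was not tested. Klra7, a Ly49 receptor gene for classical class I molecules, read 702 on the TKO-labelled and 252 on the DKO-labelled array, 2.79-fold higher, and Klra8, another Ly49 gene, read 602 and 251 in that order, 2.40-fold higher. Ly49 genes are close copies of one another, and whether their probe sets share signal was not tested. Klrd1 and Klrc1, which form the CD94 and NKG2A receptor for Qa-1, read 1998 and 1001 on the TKO-labelled array, against 944 and 542 on the DKO-labelled array, ratios of 2.12-fold and 1.85-fold. Their ligand gene H2-T23 had shared probe sets on both sides of 0.

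The coreceptor genes Cd8a and Cd8b1, through which T cells contact class I molecules, did not reach 2-fold. Cd8a read 635 on the TKO-labelled and 616 on the DKO-labelled array (log2 ratio 0.04) on its brightest probe set, and its 4 other probe sets were at 0.10, 0.32, 0.49 and 0.52. The 1 probe set of Cd8b1 read 1080 on the TKO-labelled and 975 on the DKO-labelled array (0.15). Klra1, Klra2, Klrc2 and Pirb were below the floor on both arrays.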
